A study of Mus musculus with 16 samples.

Results

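The circadian clock genes Bhlhe40, Bhlhe41, Rora, Nr1d1, Nr1d2, Per1, Per2, Cry1, Dbp and Arntl (also called Bmal1) were followed in differentiating mouse embryonic stem cells (mESCs) given the hawthorn extract WS1442 or its fraction MeOH eluate. These 10 genes were carried by 15 of the 60273 probes on the array, and 9 of them, on 12 probes, were bright enough to be tested among 31083 genes. The exception was Per2, whose single probe was well above background on 4 of 16 arrays. The set was put together with earlier results of these data known, and it was built around higher signals of Bhlhe41 and Rora at 6 h. Values at 6 h are therefore given for all members as a description without a test, and tests are given only at 24 h. The 24 h differences come from arrays other than those of the 6 h choice. The spread behind their p-values was estimated from all 16 arrays, those of 6 h among them.

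The cells were CGR8-Myh6-GFP mESCs, a mouse line that carries GFP under the promoter of the cardiac myosin gene Myh6 and that was left to differentiate towards cardiomyocytes in multi-well plates. From day 4 they received DMSO (vehicle), WS1442 at 0.25 mg/ml or MeOH eluate, the part of WS1442 eluted with methanol, at 0.1 mg/ml, and RNA was taken after 6 h or 24 h. This gave 2 DMSO, 3 WS1442 and 3 MeOH eluate arrays at each time, 16 in all, and the DMSO arrays served as control for both treatments. The doses of WS1442 and MeOH eluate differed. The labels do not state that replicates came from separate cultures, so p-values measure the spread between these samples, which may be technical. The 8 arrays of each time point lay on a slide of their own, so time and slide cannot be told apart and treatments were compared with DMSO within a time point. Each sample was a mixed culture, in which fewer cells of a type and less RNA per cell cannot be told apart. Between 55.1 and 63.0% of probes were well above background per array. All 6 pluripotency and all 6 mesoderm markers were well above background on every array, whereas the probe for Myh6 itself was too dim to be tested.

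In the mammalian clock, the activators CLOCK and BMAL1 (Arntl) bind E-box sequences and switch on the Per and Cry genes, whose products then block the activators. BHLHE40 and BHLHE41 (DEC1 and DEC2) are repressors that occupy the same E-boxes, and both are also induced by hypoxia and other stimuli outside the clock. In a further loop the nuclear receptors RORA (activator) and REV-ERB (Nr1d1 and Nr1d2, repressors) compete for ROR elements of Arntl, and DBP drives genes with D-box elements. Pluripotent stem cells are known for lacking a running clock, which appears as they differentiate.

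Promoters are shown for the members whose sequence holds the E-box or the ROR element, since these are the elements through which the clock loops act on each other. RefSeq promoters (GRCm38.p6, a window around the start of transcription) were given for 8 of the 10 genes, with 2 starts each for Per1 and Arntl, and Bhlhe40 and Per2 had no entry. The letters searched, on both strands, were the E-box CACGTG, its variant CACGTT, the D-box TTANGTAA, the ROR element (AGGTCA straight after the bases AANT) and the cAMP response element TGACGTCA, none of which overlapped another in these promoters. The sequences run 5′ to 3′ on the strand of the gene, with matches in capitals.
Bhlhe41, chr6:145865371-145865670, minus strand: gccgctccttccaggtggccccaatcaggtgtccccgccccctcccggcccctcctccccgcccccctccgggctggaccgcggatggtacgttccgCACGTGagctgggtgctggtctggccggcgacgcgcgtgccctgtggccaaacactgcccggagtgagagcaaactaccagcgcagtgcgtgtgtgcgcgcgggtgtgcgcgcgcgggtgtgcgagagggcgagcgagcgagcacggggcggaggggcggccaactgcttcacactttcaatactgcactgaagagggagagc
Per1, first start, chr11:69098699-69098998, plus strand: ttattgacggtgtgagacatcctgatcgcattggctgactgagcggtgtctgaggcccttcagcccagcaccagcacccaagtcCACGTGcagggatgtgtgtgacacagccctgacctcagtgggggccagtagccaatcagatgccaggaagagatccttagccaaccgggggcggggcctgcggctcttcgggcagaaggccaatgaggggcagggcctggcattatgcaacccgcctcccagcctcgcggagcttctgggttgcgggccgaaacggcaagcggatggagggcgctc
Cry1, chr10:85185005-85185304, minus strand: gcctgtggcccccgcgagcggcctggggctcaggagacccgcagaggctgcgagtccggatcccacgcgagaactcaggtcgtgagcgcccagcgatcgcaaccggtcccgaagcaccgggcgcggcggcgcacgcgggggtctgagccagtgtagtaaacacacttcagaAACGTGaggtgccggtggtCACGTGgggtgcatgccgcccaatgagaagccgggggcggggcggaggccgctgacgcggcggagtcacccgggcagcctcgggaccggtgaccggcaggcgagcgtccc
Arntl, second start, chr7:113207261-113207560, plus strand: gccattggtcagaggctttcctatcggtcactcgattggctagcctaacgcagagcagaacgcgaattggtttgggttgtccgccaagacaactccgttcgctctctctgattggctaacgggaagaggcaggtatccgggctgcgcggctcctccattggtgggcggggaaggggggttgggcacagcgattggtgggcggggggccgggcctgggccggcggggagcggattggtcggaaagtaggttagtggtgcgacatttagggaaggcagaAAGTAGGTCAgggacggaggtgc

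The E-box CACGTG was found in 3 of the 8 genes, Bhlhe41, Per1 and Cry1, and in 7.15% of the 32851 promoters of the table. It lay at bases -153 to -148 of Bhlhe41, -166 to -161 of Per1 and -60 to -55 of Cry1, counted from the first transcribed base as 0. CACGTT was found in Cry1 and Nr1d1 and in 4.68% of all promoters. The ROR element lay at bases 27 to 36 of Arntl and in 0.219% of all promoters. No member promoter held the D-box or the cAMP response element, which were found in 2.32% and 1.79% of all promoters. A match of letters is a description and not a measured binding site.

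At 24 h, 4 of the 9 tested members were significantly higher with WS1442 than with DMSO, namely Bhlhe40, Bhlhe41, Per1 and Cry1, and 2 were higher with MeOH eluate, namely Bhlhe40 and Bhlhe41 (limma, adjusted p under 0.05). Among all 31083 genes tested, 12.3% were higher with WS1442 and 9.35% with MeOH eluate by the same rule. By the same rule 12.1% and 8.45% of all genes were lower. No member was called lower with either treatment by limma or by the methods' t-test; at an unadjusted p under 0.05 limma gave 0 lower members with WS1442 and 1 with MeOH eluate. The limits used in the study were a change over 2-fold and an unadjusted p under 0.05. At these limits 2 members were higher with MeOH eluate, against 1.82% of all genes, and 0 with WS1442, against 1.53%. The study followed up genes that were regulated by both treatments, and no member passed these limits with both at 24 h. The median log2 change of the 9 members at 24 h was 0.26 with WS1442 and -0.03 with MeOH eluate, and that of all genes was 0.04 and 0.01. The methods' t-test after Benjamini-Hochberg adjustment kept Bhlhe40 with MeOH eluate alone, at an adjusted p of 0.0455.

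**Figure D1:**
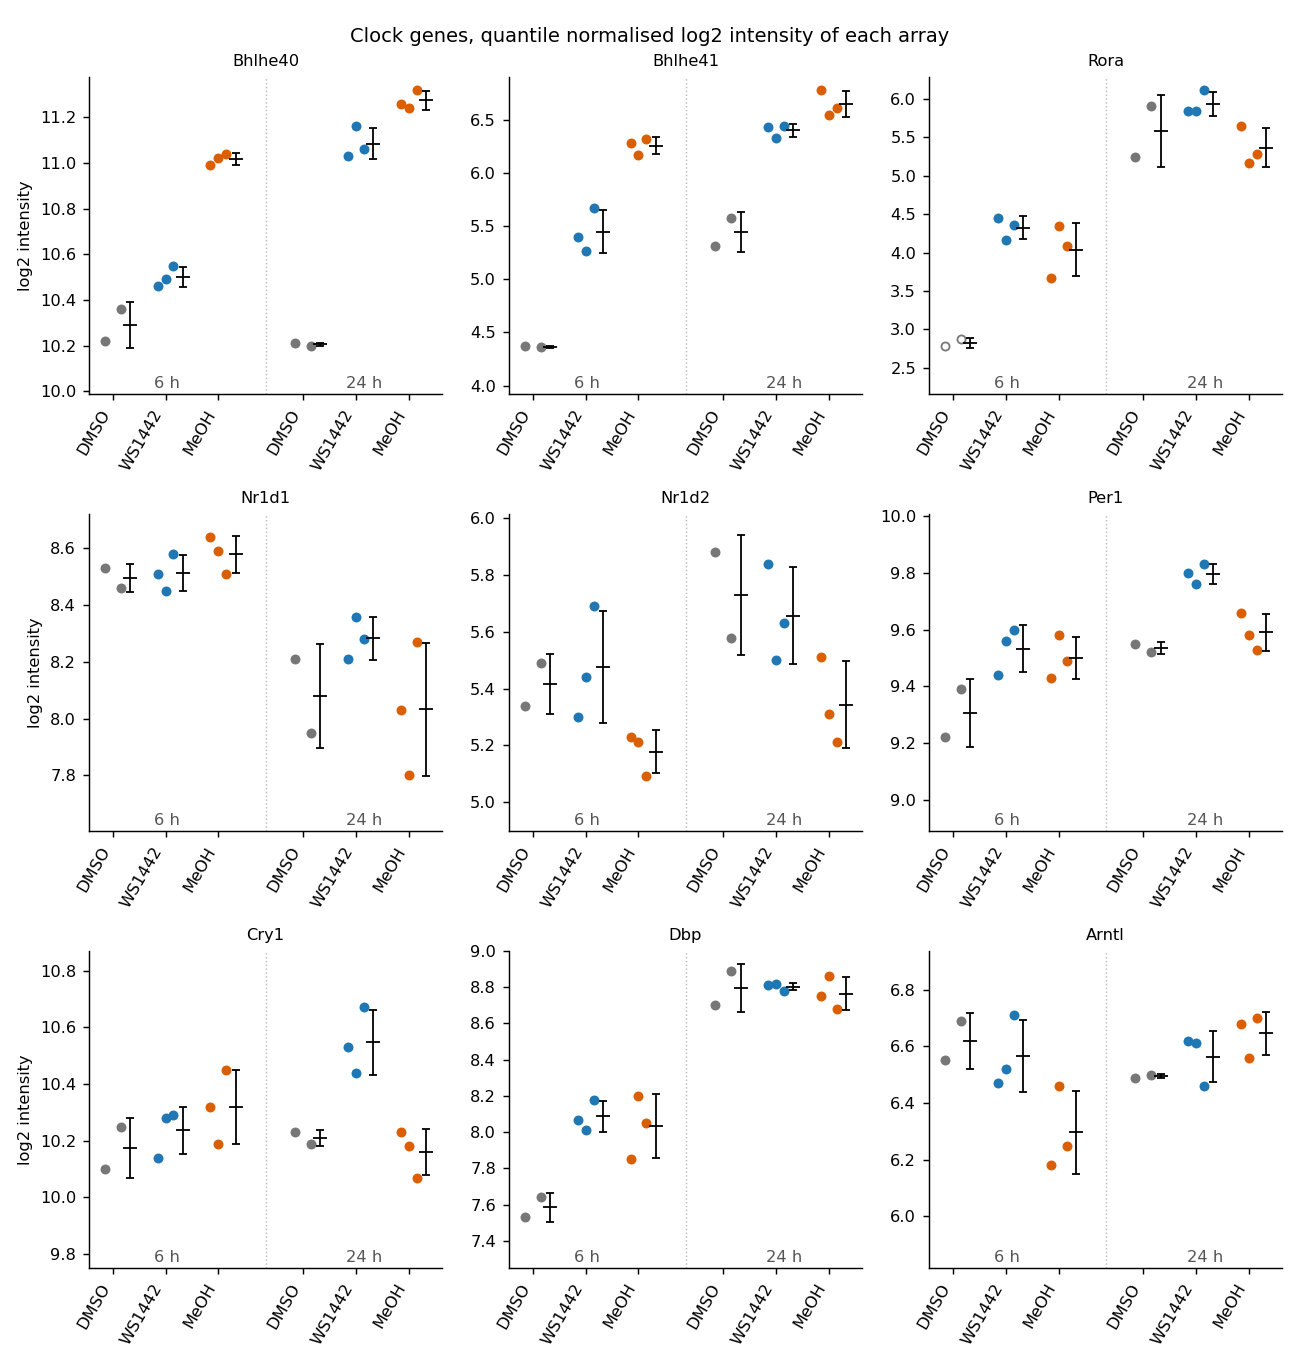
Quantile normalised log2 intensity (vertical axis) of the brightest probe of each tested clock gene on every array, by treatment (horizontal axis) and time, with bars for the mean and SD of each group; open points mark a group in which no array was well above background. Bhlhe40 at 24 h lay at 11.03 to 11.32 on all 6 treated arrays and at 10.20 and 10.21 on the DMSO arrays, whereas Nr1d1 showed overlapping groups at both times.

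Bhlhe40, the E-box repressor DEC1, gave log2 intensities at 24 h of 10.21 and 10.20 with DMSO, 11.03, 11.16 and 11.06 with WS1442 and 11.26, 11.24 and 11.32 with MeOH eluate. The groups did not overlap, and every MeOH eluate array lay above every WS1442 array. Bhlhe40 rose by 0.87 ± 0.05 (SE) on the log2 scale with WS1442, a 1.83-fold change (adjusted p = 6.34e-07), and by 1.06 ± 0.05 with MeOH eluate, a 2.09-fold change (adjusted p = 2.65e-08). At 6 h its values were 10.22 and 10.36 with DMSO, 10.46, 10.49 and 10.55 with WS1442 and 10.99, 11.02 and 11.04 with MeOH eluate. The means thus lay 0.21 and 0.72 above DMSO at 6 h, with the same order of groups as at 24 h.

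Bhlhe41, the related repressor DEC2, was dimmer on its probe but moved the same way. At 24 h it read 5.31 and 5.58 with DMSO, 6.43, 6.33 and 6.44 with WS1442 and 6.78, 6.54 and 6.61 with MeOH eluate, with no overlap between DMSO and either treatment. It rose by 0.96 ± 0.14 on the log2 scale with WS1442 (1.94-fold, adjusted p = 0.000221) and by 1.20 ± 0.14 with MeOH eluate (2.31-fold, adjusted p = 2.51e-05). At 6 h, where it helped to choose the set, Bhlhe41 read 4.37 and 4.36 with DMSO, 5.40, 5.27 and 5.67 with WS1442 and 6.28, 6.17 and 6.32 with MeOH eluate. The MeOH eluate arrays were highest and the means stood 1.08 and 1.89 above DMSO, or 2.12-fold and 3.72-fold. With another background correction (normexp, offset 50) the differences were smaller, 0.34 and 0.76 at 6 h and 0.48 and 0.61 at 24 h, and the calls at 24 h held (adjusted p = 0.000162 and 1.26e-05). By the methods' t-test the adjusted p at 24 h was 0.0766 with WS1442 and 0.0754 with MeOH eluate for Bhlhe41, and 0.0563 with WS1442 for Bhlhe40.

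Rora, the receptor that activates through ROR elements, was read by 3 probes that gave different pictures. Its brightest probe (XM_006510877) read 2.78 and 2.87 with DMSO at 6 h, 4.45, 4.16 and 4.36 with WS1442 and 3.67, 4.35 and 4.09 with MeOH eluate. Neither DMSO array was well above background there, so only a bound can be set: WS1442 gave a signal at least 2.09-fold higher than DMSO, and MeOH eluate one at least 1.71-fold higher, taking for each DMSO array the lowest signal that was well above background. A further probe (NM_013646), well above background on all 16 arrays, read 3.76 and 3.89 with DMSO at 6 h, 4.02, 4.10 and 4.13 with WS1442 and 3.75, 4.19 and 4.18 with MeOH eluate. On that probe the mean differences were 0.26 and 0.22, and the MeOH eluate arrays overlapped with DMSO. The remaining probe (NM_001289917) was well above background on 0 of 16 arrays, with values between 1.54 and 3.22.

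At 24 h, Rora did not pass the test with either treatment. The brightest probe read 5.25 and 5.91 with DMSO, 5.85, 5.84 and 6.12 with WS1442 and 5.65, 5.17 and 5.28 with MeOH eluate, and the DMSO arrays spanned most of this range. The log2 difference from DMSO was 0.36 with WS1442 (95% interval -0.16 to 0.87, adjusted p = 0.314) and -0.21 with MeOH eluate (-0.73 to 0.30, adjusted p = 0.64). The probe for NM_013646 differed by 0.16 and -0.16 (adjusted p = 0.661 and 0.723). Without DMSO replicate 2 the MeOH eluate difference of the brightest probe was 0.12 and without DMSO replicate 1 it was -0.55.

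**Figure D2:**
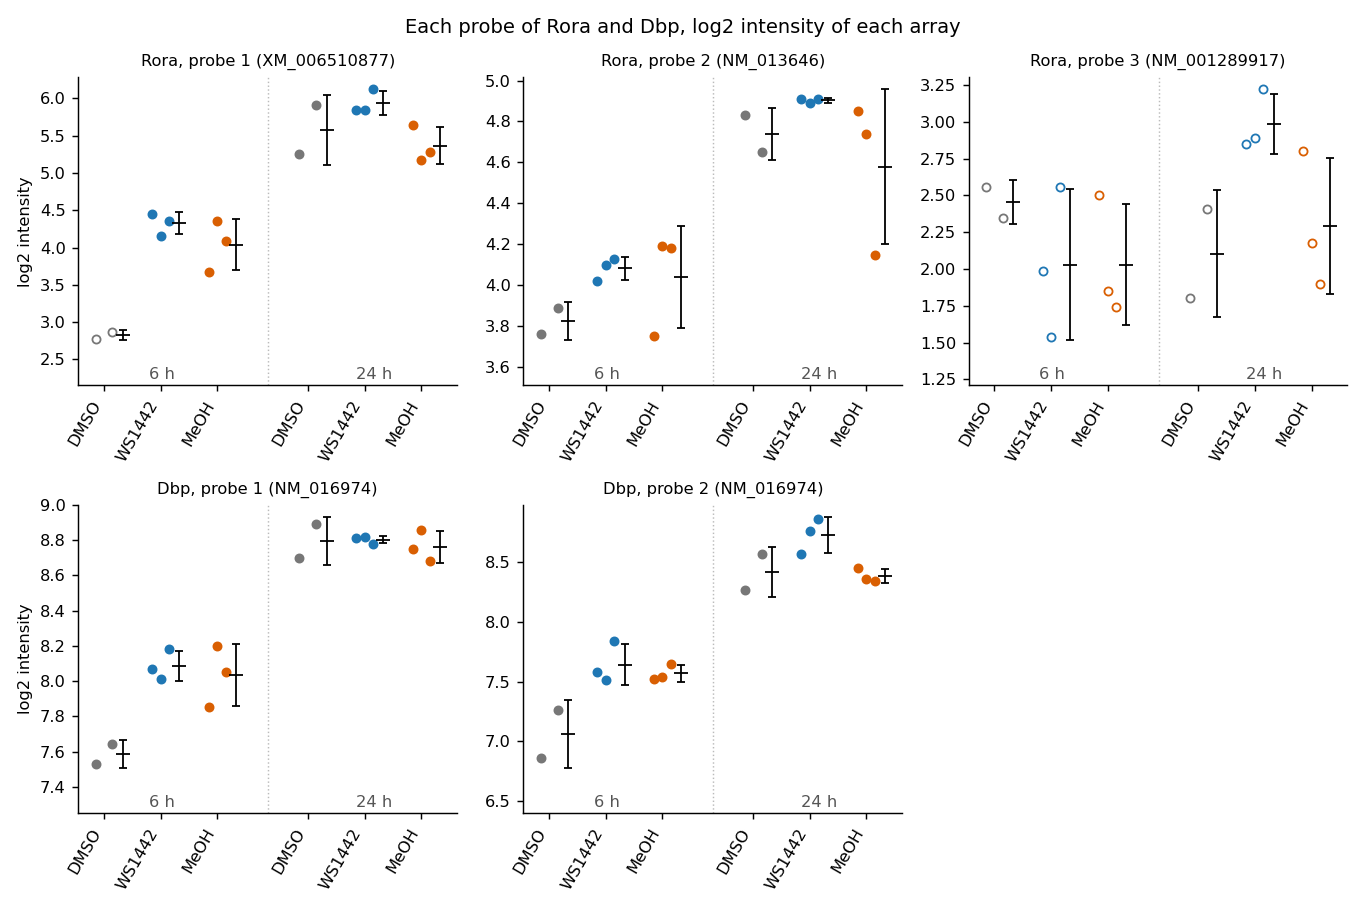
Log2 intensity (vertical axis) of every probe of Rora and Dbp on each array by treatment and time, with the mean and SD of each group beside the points; open points mark groups without any array well above background. The brightest Rora probe was not well above background on either DMSO array at 6 h, while both Dbp probes lay higher with either treatment at 6 h.

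The REV-ERB receptors Nr1d1 and Nr1d2, which repress through the ROR element, were not called at 24 h. Nr1d1 read 8.21 and 7.95 with DMSO, 8.21, 8.36 and 8.28 with WS1442 and 8.03, 7.80 and 8.27 with MeOH eluate. Its groups overlapped, with log2 differences from DMSO of 0.20 (-0.04 to 0.45, adjusted p = 0.23) and -0.05 (-0.30 to 0.20, adjusted p = 0.849). At 6 h all 8 arrays lay between 8.45 and 8.64.

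Nr1d2 read 5.88 and 5.58 with DMSO at 24 h, 5.84, 5.50 and 5.63 with WS1442 and 5.51, 5.31 and 5.21 with MeOH eluate. Every MeOH eluate array lay below both DMSO arrays, but the difference of -0.39 (-0.73 to -0.04) did not pass the test (adjusted p = 0.123), and that with WS1442 was -0.07 (-0.42 to 0.27, adjusted p = 0.786). At 6 h the MeOH eluate arrays, at 5.23, 5.21 and 5.09, also lay below both DMSO arrays, at 5.34 and 5.49, while the WS1442 arrays at 5.30, 5.44 and 5.69 overlapped with them. A second Nr1d2 probe (BC096461) stayed between 1.28 and 1.43 and was well above background on 0 of 16 arrays.

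Among the repressors of the core loop, Per1 and Cry1 were higher at 24 h with WS1442 and were not called with MeOH eluate. Per1 read 9.55 and 9.52 with DMSO, 9.80, 9.76 and 9.83 with WS1442 and 9.66, 9.58 and 9.53 with MeOH eluate. It rose by 0.26 ± 0.07 on the log2 scale with WS1442 (1.20-fold, adjusted p = 0.0132), and the difference with MeOH eluate was 0.06 (-0.09 to 0.21, adjusted p = 0.653). At 6 h Per1 read 9.22 and 9.39 with DMSO, 9.44, 9.56 and 9.60 with WS1442 and 9.43, 9.58 and 9.49 with MeOH eluate, so that all 6 treated arrays lay above both DMSO arrays, by 0.23 and 0.20 in the mean. A second Per1 probe (AK081813), well above background on 12 of 16 arrays, had DMSO arrays far apart at 24 h, at 4.47 and 1.98, and was not called (adjusted p = 0.291 and 0.547).

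Cry1 read 10.23 and 10.19 with DMSO at 24 h, 10.53, 10.44 and 10.67 with WS1442 and 10.23, 10.18 and 10.07 with MeOH eluate. The WS1442 arrays stood apart from all others, and Cry1 rose by 0.34 ± 0.09 with WS1442 (1.27-fold, adjusted p = 0.0102), against a difference of -0.05 with MeOH eluate (-0.23 to 0.13, adjusted p = 0.794). At 6 h the groups overlapped, with 10.10 and 10.25 for DMSO, 10.14, 10.28 and 10.29 for WS1442 and 10.32, 10.19 and 10.45 for MeOH eluate. The calls of Per1 and Cry1 were lost when DMSO replicate 1 of 24 h (adjusted p = 0.0642 and 0.0533) or replicate 2 (0.0645 and 0.0518) was left out, with log2 changes of 0.25 to 0.28 and 0.32 to 0.36. The methods' t-test gave adjusted p-values of 0.0704 and 0.152.

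Per2, the paralog of Per1, could not be compared. Its probe was well above background on 1 DMSO and 2 WS1442 arrays at 6 h and on 1 WS1442 array at 24 h, with log2 values from 1.53 to 4.04 over all arrays. In no group was it well above background on every array.

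Dbp, the D-box activator and a direct output of the clock, stood above DMSO at 6 h and was not called at 24 h. Both of its probes belong to transcript NM_016974. The brighter probe read 7.53 and 7.64 with DMSO at 6 h, 8.07, 8.01 and 8.18 with WS1442 and 7.85, 8.20 and 8.05 with MeOH eluate. The other probe read 6.86 and 7.26, then 7.58, 7.51 and 7.84, then 7.52, 7.54 and 7.65 in the same groups. All 6 treated arrays exceeded both DMSO arrays on each probe, by 0.50 and 0.45 on the brighter probe and 0.58 and 0.51 on the other. At 24 h the brighter probe read 8.70 and 8.89 with DMSO, 8.81, 8.82 and 8.78 with WS1442 and 8.75, 8.86 and 8.68 with MeOH eluate, with differences of 0.01 (-0.20 to 0.21, adjusted p = 0.974) and -0.03 (-0.24 to 0.17, adjusted p = 0.886). The other probe differed by 0.31 with WS1442 (0.03 to 0.60, adjusted p = 0.102) and by -0.04 with MeOH eluate (adjusted p = 0.907).

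Arntl, the activator BMAL1, was not called at 24 h, with 6.49 and 6.50 for DMSO, 6.62, 6.61 and 6.46 for WS1442 and 6.68, 6.56 and 6.70 for MeOH eluate. The differences were 0.07 (-0.17 to 0.31, adjusted p = 0.699) and 0.15 (-0.09 to 0.39, adjusted p = 0.418). At 6 h Arntl read 6.55 and 6.69 with DMSO, 6.47, 6.52 and 6.71 with WS1442 and 6.18, 6.46 and 6.25 with MeOH eluate. The MeOH eluate arrays were all below both DMSO arrays at 6 h, by 0.32 in the mean (log2 difference -0.32), and WS1442 overlapped with DMSO.

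**Figure D3:**
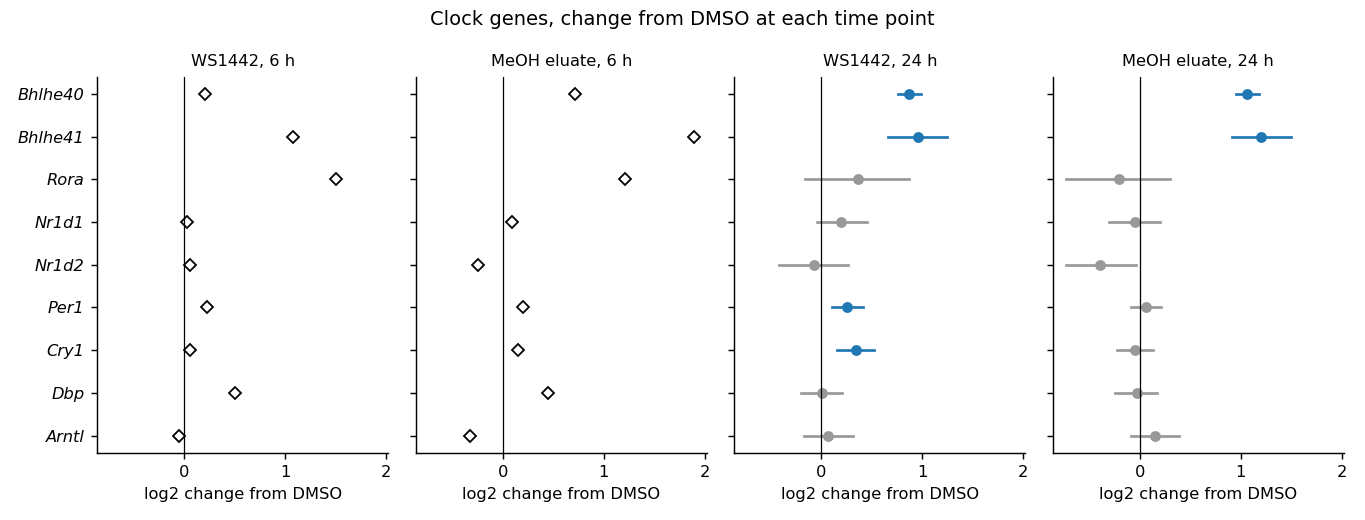
Log2 change from DMSO (horizontal axis) of each tested clock gene with WS1442 and MeOH eluate at 6 h and 24 h, brightest probe. Open diamonds are differences of means without a test. Those of Rora at 6 h are set against DMSO arrays not well above background and were smaller with normexp. Their size is therefore uncertain. Circles at 24 h carry 95% intervals, and blue marks an adjusted p under 0.05: Bhlhe40 and Bhlhe41 with both treatments, Per1 and Cry1 with WS1442.

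Over the 6 h arrays as a whole, 5 of the 9 members lay above both DMSO arrays on all WS1442 arrays and 5 on all MeOH eluate arrays, in each case Bhlhe40, Bhlhe41, Rora, Per1 and Dbp, while Nr1d2 and Arntl lay below on all MeOH eluate arrays. Of all genes tested, 19.9% lay above and 15.7% below with WS1442, and 25.1% above and 25.0% below with MeOH eluate. The members were chosen on this contrast and nothing is read from these counts.

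The treatments were also compared with each other at 24 h, at their different doses. These differences do not draw on the DMSO means, but their spread was estimated from all 16 arrays, DMSO among them. Of the 9 members, 1 was higher with MeOH eluate than with WS1442 (7.43% of all genes) and 2 were lower (6.79% of all genes). Bhlhe40 was higher by 0.19 ± 0.05 on the log2 scale (adjusted p = 0.0199). Cry1 was lower, with a difference of -0.39 ± 0.08 (adjusted p = 0.00429), and so was Per1, with -0.20 ± 0.06 (adjusted p = 0.0425). Bhlhe41 differed by 0.25 (-0.02 to 0.51, adjusted p = 0.216) and Rora by -0.57 (-1.03 to -0.11, adjusted p = 0.0951), neither of which passed. The Cry1 difference was lost in the methods' t-test (adjusted p = 0.1) and in no fit that left out an array. That of Bhlhe40 was lost without WS1442 replicate 1 (0.0651), WS1442 replicate 3 (0.0813) or MeOH eluate replicate 3 (0.0885) of 24 h, and that of Per1 in 8 of 16 fits that left out an array (highest adjusted p = 0.16) and in 4 of 9 other settings: scaling to the 75th percentile (0.0674), no filter (0.052), array row as a block (0.0871) and the methods' t-test (0.098). The methods' t-test also lost that of Bhlhe40 (0.113).

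Of 23 further clock genes, 22 could be tested, at both times, since the choice of members did not rest on them; Hlf was too dim. The number called was close to the share of all genes in each comparison. It was 1 at 6 h with WS1442 (5.09% of all genes called) and 4 with MeOH eluate (16.8%), then 6 at 24 h with WS1442 (24.4%) and 3 with MeOH eluate (17.8%). Split by direction, 1 was higher at 6 h with WS1442, 3 higher and 1 lower with MeOH eluate, 3 higher and 3 lower at 24 h with WS1442, and 1 higher and 2 lower with MeOH eluate. These splits count Noct by its brighter probe, which went against its other probe; counted by the other probe, an alternative chosen after seeing the data, they were 2 higher and 0 lower, 4 higher and 0 lower, 4 higher and 2 lower, and 2 higher and 1 lower in the same order. The effect at 24 h differed from that at 6 h for 3 of the 22 genes with either treatment, against 12.2% (WS1442) and 7.45% (MeOH eluate) of all genes.

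Both tested D-box factors among these further genes were called, Tef at 6 h and Nfil3 at 24 h. Each comparison with DMSO called 5.09 to 24.4% of all genes, and the member Dbp, also a D-box factor, was not called at 24 h. Tef, an activator related to Dbp, read 9.10 and 9.30 with DMSO at 6 h, 9.59, 9.57 and 9.78 with WS1442 and 9.51, 9.72 and 9.53 with MeOH eluate. Tef rose at 6 h by 0.45 ± 0.09 with WS1442 (adjusted p = 0.0104) and by 0.39 ± 0.09 with MeOH eluate (adjusted p = 0.00696), and at 24 h the differences were -0.20 and -0.10 (adjusted p = 0.109 and 0.534). Nfil3, the repressor at the same elements, read 9.59 and 9.46 with DMSO at 24 h, 9.21, 9.12 and 9.19 with WS1442 and 8.92, 8.90 and 8.84 with MeOH eluate. It fell by 0.35 (WS1442, adjusted p = 0.00762) and by 0.64 (MeOH eluate, adjusted p = 9.7e-05), after differences of -0.07 and 0.10 at 6 h. The Tef calls were lost without DMSO replicate 1 of 6 h (adjusted p = 0.189 and 0.128), that of Tef with WS1442 also in the fit within the time point (0.0661), and that of Nfil3 with WS1442 without DMSO replicate 1 of 24 h (0.104).

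Among activators and repressors, Npas2, the partner of BMAL1 that can replace CLOCK, rose at 24 h with WS1442 by 0.54 ± 0.12 (adjusted p = 0.00483), from 8.33 and 8.46 with DMSO to 8.79, 8.98 and 9.01, and was lower with MeOH eluate than with WS1442 (log2 difference -0.46, adjusted p = 0.0108). Without DMSO replicate 1 of 24 h its adjusted p was 0.0624. Its rise of 0.37 at 6 h with MeOH eluate (adjusted p = 0.0475) was lost in 7 of 9 other settings and 11 of 16 fits without an array. Ciart, a repressor of CLOCK and BMAL1, rose at 24 h with WS1442 by 0.53 ± 0.17 (adjusted p = 0.0343), with 10.69 and 10.93 for DMSO and 11.17, 11.37 and 11.49 for WS1442, a call lost without DMSO replicate 1 (0.259), WS1442 replicate 2 (0.0767) or WS1442 replicate 3 (0.119) of 24 h and without the filter (0.0841). Clock, Arntl2, Per3, Cry2, Cipc and Rorb were not called in any comparison with DMSO.

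Of the kinases and ubiquitin ligase parts that set the life of PER and CRY proteins, Csnk1d rose by 0.19 and Fbxw11 fell by 0.21 at 24 h with WS1442 (adjusted p = 0.0256 and 0.0174), and Gsk3b rose by 0.23 with MeOH eluate (adjusted p = 0.041). The Csnk1d difference was 0.04 when arrays were scaled to their 75th percentile, and its call was lost in the fit within the time point (0.0538) and without DMSO replicate 2, WS1442 replicate 1 or WS1442 replicate 3 of 24 h (highest adjusted p = 0.202). The Gsk3b call was lost in 6 of 9 settings and 7 of 16 fits without an array, and that of Fbxw11 without DMSO replicate 1, WS1442 replicate 2 or WS1442 replicate 3 of 24 h (highest 0.167). Csnk1e was not called by its brightest probe, but dimmer probes of it were. A dimmer probe rose by 0.38 at 6 h with MeOH eluate (adjusted p = 0.00258) and fell by 0.21 at 24 h with WS1442 (0.0439). Another fell by 0.32 at 24 h with MeOH eluate (0.00205).

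Among clock outputs, Nampt, which makes the NAD+ precursor NMN, rose at 6 h with MeOH eluate by 0.58 ± 0.12 (adjusted p = 0.00481), but its DMSO arrays read 8.60 and 9.15, and without DMSO replicate 1 the difference was 0.31 (adjusted p = 0.101). Noct, a circadian deadenylase-like enzyme, gave opposite results on its 2 probes. The brighter probe (ENSMUST00000144826) fell by 0.40 at 6 h (MeOH eluate) and by 0.47 (WS1442) and 0.30 (MeOH eluate) at 24 h (adjusted p = 0.000516, 0.000118 and 0.00289). The probe of the RefSeq transcript (NM_009834) rose at 6 h by 0.27 and 0.48 and at 24 h by 0.70 and 0.61 with WS1442 and MeOH eluate (adjusted p = 0.0436, 0.000403, 2.41e-05 and 3.24e-05). The direction of Noct is therefore uncertain. Usp2 was called only on its probe XM_006510486, at 24 h. There the log2 difference from DMSO was 1.26 for WS1442 (limma, adjusted p = 0.00998) and 0.98 for MeOH eluate (adjusted p = 0.045). The DMSO arrays of this probe lay far apart, at 3.51 and 4.80, and the MeOH eluate arrays overlapped with them. Both Usp2 probes of NM_016808, the brightest among them, had lower means than DMSO at 24 h under each treatment and were not called.

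**Figure D4:**
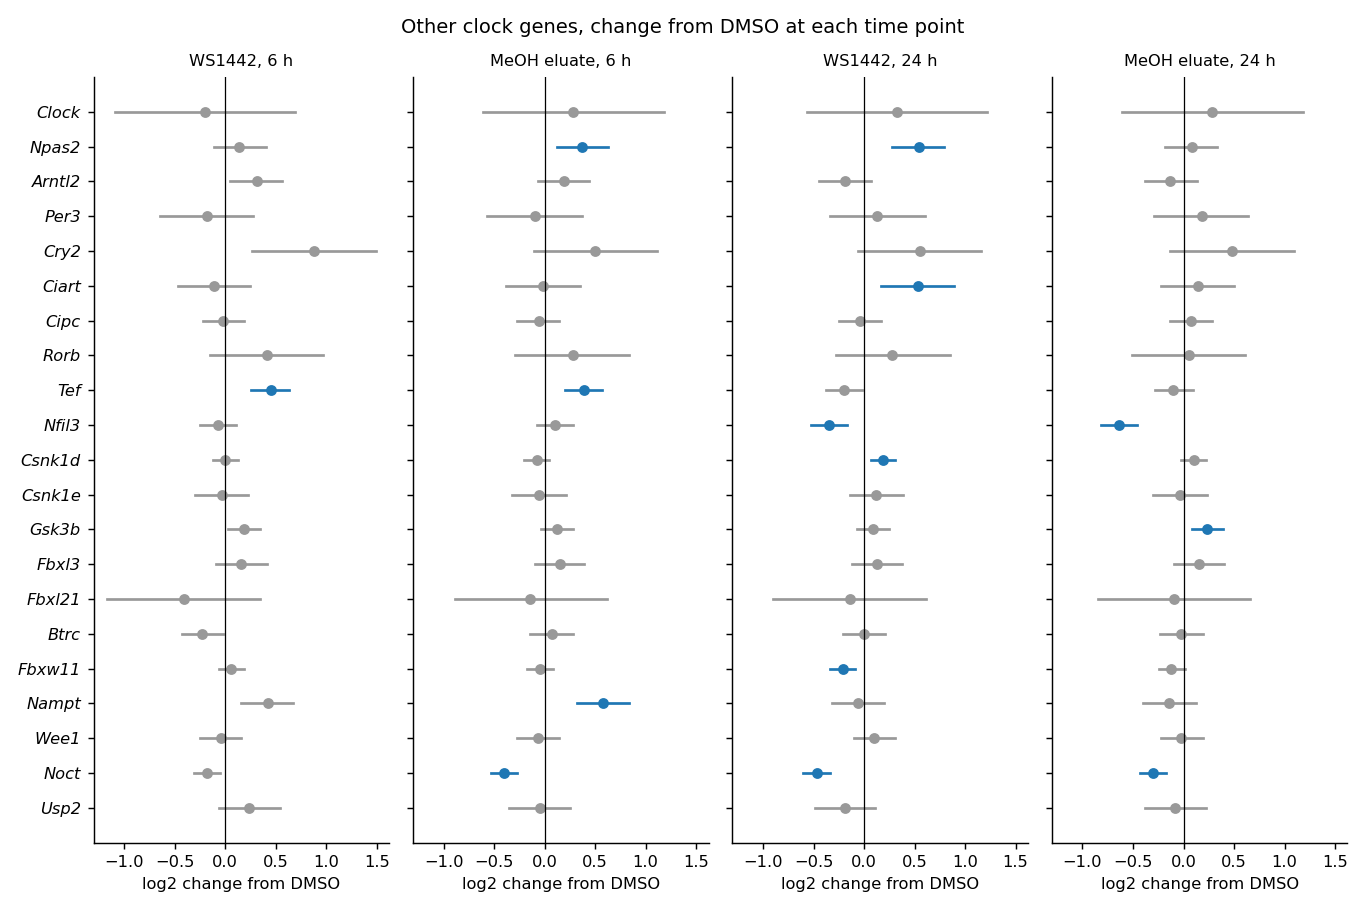
Log2 change from DMSO (horizontal axis) with 95% intervals of further clock genes, brightest probe, at 6 h and 24 h with each treatment; blue marks an adjusted p under 0.05. Tef stands higher at 6 h with both treatments and Nfil3 lower at 24 h with both, while most intervals include 0.

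Since Bhlhe40, Bhlhe41 and Per1 also respond to signals outside the clock, 3 lists of such targets were counted beside them. Of 11 tested targets of the hypoxia factor HIF, 3 were higher at 6 h with WS1442 and 6 with MeOH eluate, and at 24 h 3 were higher with WS1442, and 2 higher and 3 lower with MeOH eluate. Their median log2 change was 0.40 and 0.51 at 6 h and 0.07 and -0.18 at 24 h, against -0.01 to 0.04 for all genes. Of 10 early genes driven by the cAMP factor CREB, 4 and 2 were higher at 6 h with WS1442 and MeOH eluate. At 24 h the numbers were 4 and 3. Their median log2 change was 0.30 and 0.15 at 6 h and 0.35 and 0.09 at 24 h. Of 5 glucocorticoid targets other than Per1, 1 was higher at 6 h with WS1442, and 1 higher and 1 lower with MeOH eluate. At 24 h 1 was higher and 1 lower with WS1442, and 2 were lower with MeOH eluate. Their medians were 0.09 and -0.18 at 6 h and -0.09 and -0.08 at 24 h. The part of such signals in the changes of Bhlhe40, Bhlhe41 and Per1 was not tested. Among all genes at 6 h, WS1442 raised 3.81% and lowered 1.29%, while MeOH eluate raised 8.40% and lowered 8.43%; at 24 h the shares were 12.3% and 12.1% for WS1442 and 9.35% and 8.45% for MeOH eluate.

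Markers of other cell types moved in the same cultures. The summed linear intensity of the 6 mesoderm markers at 24 h was 3228 to 3250 with DMSO, 2615 to 2740 with WS1442 and 2104 to 2331 with MeOH eluate, with 2 and 3 markers called lower. That of 5 tested endoderm markers was 2617 to 2793, 2314 to 2632 and 1455 to 1767, with 2 and 3 called lower and 1 called higher with WS1442. For 7 tested cardiac markers it was 1839 to 1997, 1197 to 1389 and 741 to 875, with 4 and 5 lower and 1 higher with WS1442, and for 5 neuroectoderm markers 3269 to 3375, 4752 to 5286 and 3967 to 4574, with 3 and 2 higher and 1 lower with MeOH eluate. For the 6 pluripotency markers the sums overlapped, at 8354 to 8739, 8494 to 9099 and 8319 to 9701. At 24 h, of 4 endothelial and 4 erythroid markers, 1 endothelial marker was called lower and 1 erythroid marker higher, both with MeOH eluate. At 6 h the mesoderm sum was 3861 to 3873, 2752 to 3054 and 1933 to 2034 in the same order of groups, with 2 and 3 markers called lower. The endoderm sum was 2074 to 2114, 1574 to 1718 and 1192 to 1383, with 1 and 3 called lower. The cardiac sum at 6 h was 837 to 902, 897 to 1042 and 1088 to 1176, with 1 and 2 markers called higher, and the neuroectoderm sum 4655 to 4763, 4516 to 4798 and 5153 to 5857, with 1 lower with WS1442 and 1 higher and 2 lower with MeOH eluate. The pluripotency sums overlapped at 6 h too, at 13845 to 14811, 14001 to 14249 and 13807 to 14493, though a linear sum weighs bright markers most. By single markers, all 6 were lower in the mean at 6 h with WS1442 (median log2 change -0.14), with 0 called. With MeOH eluate 5 were lower and 1 higher at 6 h (median -0.34), with 2 called lower. At 24 h 3 were higher and 3 lower with WS1442 (median -0.04). All 6 were higher at 24 h with MeOH eluate (median 0.14), and 0 were called with either treatment. The part of these shifts in the changes of Bhlhe40, Bhlhe41, Per1 and Cry1 was not tested.

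The genes whose pattern was most like that of Bhlhe41 were sought among 14971 annotated genes well above background on all arrays, by Pearson's r over the 16 arrays after subtracting the mean of each time point. The 5 highest were Pla1a (r = 0.974), a phospholipase, Abhd5 (0.971), a co-activator of fat breakdown, Cd9 (0.970), a tetraspanin, Gpr19 (0.970), an orphan receptor, and Sprr1a (0.968), a protein of the cornified envelope. Sprr1a stood 0.80 and 1.68 above DMSO at 6 h and 0.81 and 0.98 at 24 h. For the brightest Rora probe they were Rmi1 (0.919), Adssl1 (0.918), Bivm (0.892), Rspo3 (0.886), a Wnt pathway agonist, and Dbp (0.878). Rspo3 stood 0.69 and 0.57 above DMSO at 6 h and 0.14 and 0.06 above it at 24 h. Both rankings drew on the 6 h values that chose the set, and Dbp is itself a member. The Rora probe was not well above background on either DMSO array at 6 h. The arrays of a time point share a slide, and these correlations are a description.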

How the data were processed

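Total RNA of the 16 samples (RNA integrity 8.6 to 10) was labelled with Cy3 and hybridised to 1-colour Agilent ArrayXS Mouse arrays. The authors deposited scanner files whose processed intensities, background corrected by Agilent Feature Extraction 11.5.1.1, are not normalised between arrays, and a table of linear intensities quantile normalised over all arrays, which was used as an alternative (16 of 16 columns matched their own array best, lowest r 0.9973).

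Log2 processed intensities were taken, spots called non-uniform (3 to 25 per array) set missing, replicate spots averaged and arrays quantile normalised with limma 3.58.1 in R 4.3.3; tables and figures were made in Python 3.11.15. The filter kept 36729 probes for which all arrays of 1 or more of the 6 groups were well above background, and a gene was called by its brightest kept probe. A model with 6 group means was fitted (limma, eBayes with trend) and p-values were adjusted over all kept probes by Benjamini-Hochberg at 0.05. The procedure was tested on simulated data. The number of arrays limits the precision.

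Gene names in the scanner files named only some member probes, so 13 of the 15 were named by RefSeq accession in a RefSeq table of assembly GRCm38.p6 and 2 by the files. Members and lists were chosen with earlier results of these data known. Named in the text are the members, further clock genes past the adjusted threshold in at least 1 comparison with DMSO (at most 12), and the 5 genes most like Bhlhe41 and Rora. Csnk1e and Usp2 were added for calls on probes other than their brightest. Alternatives were scaling to the 75th percentile, normexp, no filter, 1 probe per gene, the authors' table, a fit per time point, the methods' t-test, replicate number or array row as a block, and leaving out each array. Of the further clock genes counted, 1 is not reported here by name.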

Additional observations from a re-analysis of the deposited data

Results flagged for a closer look

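Some further clock genes were affected differently at the separate times, by the interaction term of the limma fit; each effect was measured against DMSO on its own slide. Of the 22 genes tested 3 were called with each treatment, against 12.2% of all genes with WS1442 and 7.45% with MeOH eluate. The change of Tef at 24 h minus that at 6 h was -0.65 with WS1442 (adjusted p = 0.00531) and -0.48 with MeOH eluate (adjusted p = 0.0251). For Nfil3 it was -0.74 with MeOH eluate (adjusted p = 0.00136). For Nampt it was -0.72 with MeOH eluate (adjusted p = 0.018) and for Fbxw11 -0.28 with WS1442 (adjusted p = 0.045). For Noct it was -0.29 with WS1442 (adjusted p = 0.0469) on the brighter probe. On the other Noct probe the change with WS1442 was 0.27 at 6 h and 0.70 at 24 h, and no test of that difference is given.

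Arntl lay below both DMSO arrays on all MeOH eluate arrays at 6 h (-0.32) and above both at 24 h (0.15); this difference between times was not tested.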

How the results depend on the processing

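The calls of Bhlhe40 and Bhlhe41 at 24 h against DMSO were lost under no alternative except the methods' t-test. By that test after adjustment the members called at 24 h numbered 0 of 9 with WS1442, 1 with MeOH eluate and 0 between the treatments, and the further clock genes 0 in each of the 4 comparisons with DMSO (0 at 6 h with WS1442, 0 with MeOH eluate, 0 and 0 at 24 h); at an unadjusted p under 0.05 it called 4, 2 and 5 members. At 6 h with WS1442 the further clock genes called numbered 2 with normexp, 2 with Noct counted by its other probe (chosen after seeing the data) and 0 in a fit within the time point, and without the filter 1 differed between times with WS1442. When single arrays were left out, members called at 24 h ranged from 2 to 4 with WS1442, 2 to 2 with MeOH eluate and 1 to 3 between treatments, members apart from DMSO at 6 h from 5 to 6 with either treatment, and further clock genes from 0 to 2 and 1 to 5 at 6 h, 2 to 6 and 2 to 3 at 24 h and 1 to 3 between times with each treatment. The count with WS1442 at 24 h was 2 for members without DMSO replicate 1 or 2 of 24 h, and for further clock genes 2 without DMSO replicate 1 and 3 without WS1442 replicate 3 of 24 h; between treatments it was 1 without WS1442 replicate 1 or 3 of 24 h. At 6 h without DMSO replicate 1 the further clock genes called were 0 with WS1442 and 1 with MeOH eluate, and with WS1442 2 without DMSO replicate 2 or WS1442 replicate 1. The genes that differed between times fell to 1 with WS1442 in 9 such fits and with MeOH eluate without DMSO replicate 1 of 6 h.

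Differences near 0 changed sign at 24 h without being called. With WS1442 these were Dbp at -0.01 with 75th percentile scaling, -0.08 with normexp, -0.09 without DMSO replicate 1 and -0.0015 without WS1442 replicate 2, and Nr1d2 at 0.08 without DMSO replicate 1 and 0.0036 without WS1442 replicate 2. With MeOH eluate these were Cry1 at 0.01 with normexp, Rora at 0.12 without DMSO replicate 2, Nr1d1 at 0.08 without DMSO replicate 1 and 0.07 without MeOH eluate replicate 2, and Dbp at 0.06 without DMSO replicate 2 and 0.01 without MeOH eluate replicate 3. Between the treatments Dbp was at 0.0028 without MeOH eluate replicate 3. Over the fits without 1 array these differences spanned, with WS1442, -0.23 to 0.08 for Nr1d2 and -0.09 to 0.10 for Dbp, and with MeOH eluate -0.55 to 0.12 for Rora, -0.18 to 0.08 for Nr1d1 and -0.13 to 0.06 for Dbp. The cause was not tested.

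Whether replicate numbers pair the samples could not be settled with so few arrays per group. Deviations of WS1442 and MeOH eluate arrays of the same number correlated at 0.284, -0.06 and -0.034 at 6 h and 0.036, 0.095 and -0.017 at 24 h. Those of different number ran from -0.189 to 0.242 at 6 h and from -0.106 to 0.081 at 24 h. With the replicate block 4, 2 and 3 members were called at 24 h and 1, 3, 6 and 2 further clock genes against DMSO, and 2 with each treatment between times. Signals near background set the limit for Rora at 6 h and for Per2.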
